A study of Mus with 3 samples.

Results

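The AP-1 family genes described here are Fos, Fosb, Fosl2, Jun, Junb, Jund, Atf3 and Maff, 8 of the 32285 genes counted in the single-cell library. They were named one by one, by gene symbol, and were followed across T cell subsets, macrophages, MC38 tumor cells and 3 genotypes of mice, to compare the genes that move with the handling of cells with the genes that move with activation. MC38 is a mouse colon cancer line. Day 16 tumors came from 3 kinds of mice, namely WT, RARα-KO (dLck-Cre × Rara L/L, where the distal Lck promoter drives Cre and part of Rara is lost from T cells, CD4 and CD8 alike) and RARα-TG (CD2-Rara, with Rara driven by the CD2 promoter). T cells sorted as CD45.2+ CD3+ were mixed with total tumor cells, marked with 1 hashtag antibody per genotype and run together as a single 10x 5′ library, from which T cell receptors (TCR) were also read. By the study's methods, mice in most experiments were matched for age at 6 to 10 weeks, with both sexes at first and mainly males later. The labels and methods do not say how many mice, of which sex, were behind each hashtag, or which control strain gave the WT tumor.

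With 1 sample for each genotype, no comparison below has a replicate or a test. Tumors of every genotype went through the same enzymatic digestion. Levels are CPM, the UMIs (counted RNA molecules) of a gene per 1000000 UMIs of the cells summed, followed in brackets by an exact Poisson interval at 95%, and ratios are log2 values with an exact binomial interval at 95%. The intervals cover counting error only, not the spread between cells or mice. A difference past 2-fold is a log2 ratio of at least 1 in size, and both the RARα-KO and the RARα-TG ratios share the same WT cells.

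AP-1 is a family of transcription factors that bind DNA as dimers through a basic leucine zipper (bZIP). Fos proteins cannot pair with each other and need a Jun partner, whereas Jun proteins can pair among themselves, with Fos proteins or with ATF proteins. Many of these genes are immediate early genes, whose RNA appears within minutes of a signal through MAP kinases and serum response factor. In T cells such a signal comes from the antigen receptor, and AP-1 then acts with NFAT on cytokine genes. The same genes also respond to stress, including the warming and enzymatic digestion used to take tissues apart, so that their RNA in sorted cells can date from before or after the tumor was removed.

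The library held 46394322 gene UMIs, of which 5600 barcodes with at least 500 UMIs held 96.5%. Among them 4935 had a single hashtag, with 1930 from WT, 2109 from RARα-KO and 896 from RARα-TG, and a median of 4808 UMIs over the 5600 cells. CTLs (cytotoxic T lymphocytes, CD8 T cells with a clonotype in a T cell cluster) comprised 787 WT, 968 RARα-KO and 94 RARα-TG cells, and CD4 T cells 192, 230 and 238 in that order. The labels describe spleen and naive CD8 T cells, but the cells held macrophages, neutrophils and collagen-expressing cells as the tumor protocol would give. All 9 T cell markers were found in CTLs, at a sum of 6404 CPM, and the 12 macrophage markers summed to 7.50. The cluster that should hold the MC38 cells had 11 of 12 markers of MC38 or stromal cells, led by collagens and Sparc, but Krt18 had no UMI and Krt8 had 2, so MC38 cells and tumor stroma could not be told apart and the class is called MC38 or stromal cells. The targeted gene Rara was at 82.7 CPM [75.2, 90.8] in WT CTLs, at 77.9 [71.2, 85.1] in RARα-KO CTLs and at 203 [165, 246] in RARα-TG CTLs. Transcripts that lack only the deleted exon are still counted, so the RARα-KO value does not check the deletion.

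The 8 genes are spread over 7 chromosomes of the mouse genome build GRCm38 (mm10), in the RefSeq annotation of that build. Fos (ENSMUSG00000021250) lies on chromosome 12 from 85473890 to 85477274, Fosb on chromosome 7 from 19302696 to 19310118 and Fosl2 on chromosome 5 from 32136472 to 32157840. Jun lies on chromosome 4 from 95049036 to 95052222. Junb, from 84976909 to 84978748, and Jund, from 70697739 to 70700616, both lie on chromosome 8. Atf3 lies on chromosome 1 from 191170296 to 191183333 and Maff on chromosome 15 from 79346621 to 79359078. The counts are per gene, without exon or isoform.

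The AP-1 genes fell into one set that was low in T cells and high in myeloid and MC38 or stromal cells, and another that T cells expressed as well. Fos, Fosb, Jun, Atf3 and Maff made up the first set, and Fosl2, Junb and Jund the second. Over the 8 genes, the median log2 ratio of macrophages to CTLs was 3.22 [3.04, 3.40], where the bracket holds the medians of the lower and upper bounds.

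Among the Fos genes, Fos, the founding partner of Jun in AP-1, was at 1024 CPM [1007, 1042] in MC38 or stromal cells, 916 [873, 961] in macrophages and 798 [643, 980] in neutrophils. Macrophages and neutrophils did not differ beyond their intervals. Dendritic cells (225 [166, 297]) and Siglech-high dendritic cells (217 [170, 274]) came next and overlapped, followed by T cells that passed neither gate (70.2 [61.2, 80.2]) and CD4 T cells without Foxp3 (54.9 [44.3, 67.3]). In the last of these 1 cell held 43 of 92 Fos UMIs, and the level was 29.3 [21.7, 38.8] without it. CTLs (27.3 [24.4, 30.4]) and CD4 T cells with Foxp3 (26.6 [19.5, 35.5]) were lowest and also overlapped. Fosb, a close relative of Fos with a splice form that lacks the activation domain, had its highest values in MC38 or stromal cells (343 [333, 354]) and macrophages (186 [167, 207]), against 30.5 [27.5, 33.8] in CTLs. CD4 T cells with Foxp3, the regulatory T cell factor, had the lowest Fosb level at 12.2 [7.52, 18.6]. Fosl2, a Fos-related gene that is known for slower and more lasting expression, was instead higher in T cells than in MC38 or stromal cells. It was at 474 [356, 618] in neutrophils, 377 [355, 399] in T cells that passed neither gate and 307 [281, 334] in CD4 T cells without Foxp3, and at 80.3 [75.4, 85.3] in MC38 or stromal cells. In CTLs (209 [201, 218]) and macrophages (200 [181, 222]) the Fosl2 levels did not differ beyond their intervals.

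Among the Jun genes, Jun was, like Fos, highest in MC38 or stromal cells and low in T cells. It was at 2157 [2132, 2183] in MC38 or stromal cells, 1597 [1373, 1846] in neutrophils and 618 [583, 655] in macrophages, and at 43.6 [40.0, 47.5] in CTLs and 19.1 [13.1, 27.0] in CD4 T cells without Foxp3. Junb, which pairs with BATF in activated T cells, was highest in neutrophils (4878 [4481, 5301]) and was 1570 [1511, 1631] in CD4 T cells without Foxp3, 1543 [1485, 1603] in those with Foxp3 and 612 [598, 626] in CTLs. Jund, the Jun gene that resting cells keep on, was the only one of the 8 with its highest value in a T cell class. It was at 2071 [2002, 2141] in CD4 T cells without Foxp3 and 1778 [1755, 1802] in CTLs, the latter overlapping MC38 or stromal cells (1732 [1709, 1755]), and at 1106 [1059, 1155] in macrophages.

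Atf3, a stress-induced ATF protein that can pair with Jun proteins, was at 2062 [1807, 2343] in neutrophils and overlapped between macrophages (856 [814, 899]) and MC38 or stromal cells (807 [791, 823]). CTLs had 33.3 [30.1, 36.7] and CD4 T cells with Foxp3 9.84 [5.73, 15.8]. Maff, a small MAF protein that has no activation domain of its own, was at 447 [333, 588] in neutrophils and at 6.43 [5.08, 8.02] in CTLs. Maff had no UMI in Siglech-high dendritic cells, with an upper limit of 11.1. In the plot of levels by class and genotype, Fos, Fosb, Jun, Atf3 and Maff sit below the dotted line of free RNA in T cells, as do Junb in CTLs, Jund in RARα-TG CTLs and Fosl2 in RARα-KO CTLs.

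**Figure D1:**
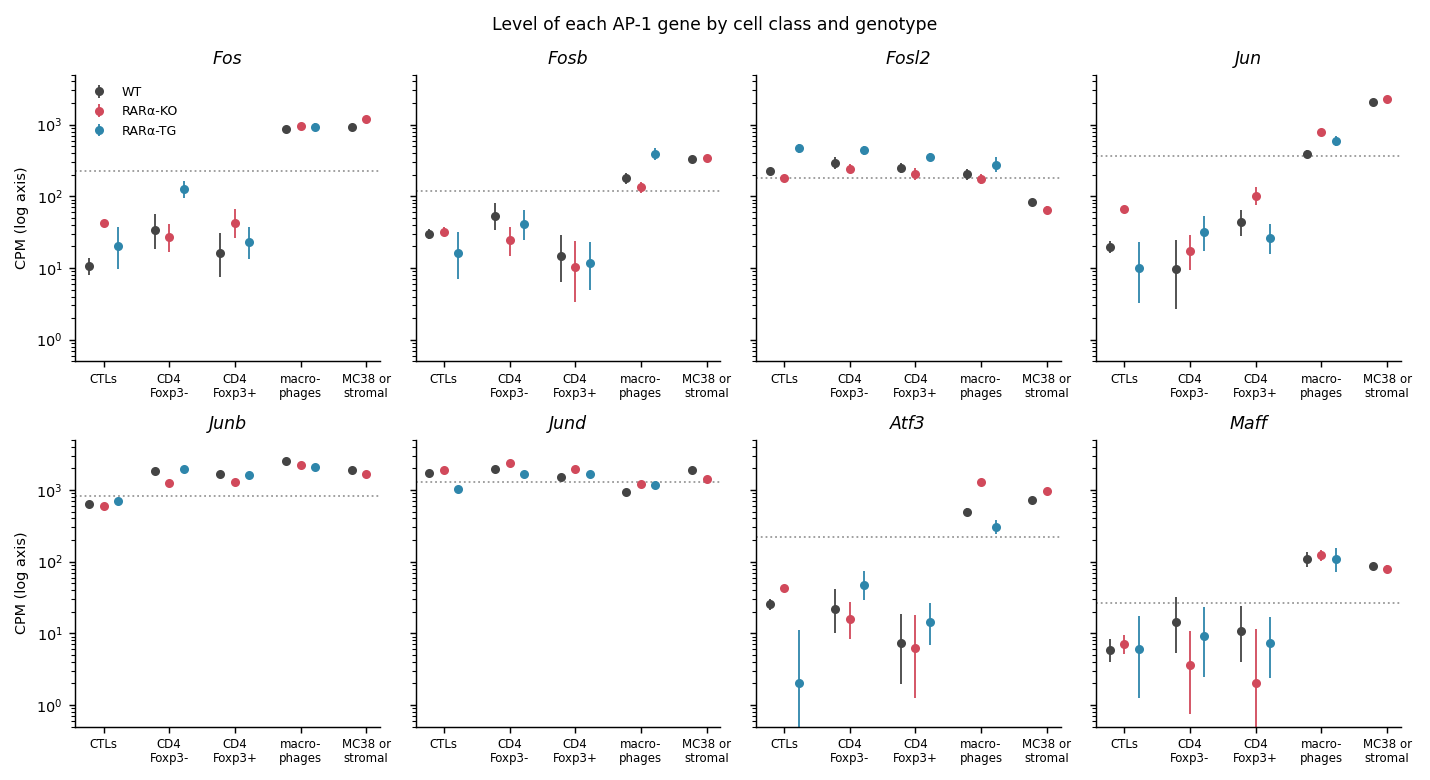
Each panel plots 1 AP-1 gene as CPM on a log axis, for 5 cell classes and the 3 genotypes, with exact Poisson intervals at 95% as bars and the level in barcodes without a cell as a dotted line. Fos, Jun and Atf3 lie far higher in macrophages (Fos 916 over all genotypes) and MC38 or stromal cells (1024) than in CTLs (27.3), whereas Fosl2 is at 209 in CTLs and 200 in macrophages, and RARα-TG is left out of MC38 or stromal cells, which had 15 cells.

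Free RNA was measured in the barcodes that held no cell. In 223795 barcodes with fewer than 100 UMIs, Fos was at 227 CPM, Jun at 364, Atf3 at 218, Fosl2 at 182, Junb at 825 and Jund at 1278. Macrophage markers in CTLs were at 1.02% of their level in such barcodes and MC38 or stromal markers at 1.67%. At these shares, free RNA could give 2.31 to 3.79 of the 27.3 CPM of Fos in CTLs, and 3.70 to 6.08 of the 43.6 for Jun. For RARα-TG CTLs the share reached 1.90% for MC38 or stromal markers, which could give up to 4.13 CPM of Atf3, above the 2.01 measured, and up to 6.90 of Jun beside the 10.0 measured. The Atf3 and Jun levels of RARα-TG CTLs are therefore at or near what free RNA could give. No cell class here is known to lack these genes, so no class served as a blank.

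The other bZIP genes that can pair with these members differed as sharply between classes. Fosl1, the fourth Fos gene, was at 534 CPM in MC38 or stromal cells and 2.14 in CTLs. Batf, the partner of Jun proteins in T cells, was at 321 in CD4 T cells, 130 in CTLs and 0.394 in MC38 or stromal cells, and Batf3 was at 216 in dendritic cells. Maf was at 390 in CD4 T cells.

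Within CTLs the AP-1 genes were unevenly spread over the clusters, which were made without the AP-1 genes and the gene lists used below. The highest levels of Fos, Fosb, Jun, Junb and Atf3 were in cluster 0, which is led by Xcl1, Ifng, Ccl4 and Ccl3, genes for chemokines and interferon gamma that T cells make soon after antigen contact. Across T cell clusters the median over the 8 genes of the highest against the lowest cluster was a log2 ratio of 2.89 [1.86, 3.64]. The highest and lowest clusters were picked for each gene from the same counts, so this ratio had to be above 0. Its bracket holds the medians of the bounds and does not cover that choice.

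In the 203 CTLs of cluster 0, Fos was at 108 CPM [89.4, 130], against 5.60 [3.46, 8.55] in the 480 CTLs of cluster 10, which is led by the granzyme genes Gzmf, Gzmd and Gzme, and 8.80 [5.85, 12.7] in the 488 CTLs of cluster 6, led by Ccl5, Serpine2 and Prf1. A single RARα-KO cell held 60 of the 113 Fos UMIs of cluster 0, and without it the level was 51.3 [38.4, 67.1], next to 48.3 [29.1, 75.4] in cluster 5. Jun was at 122 [102, 145] in cluster 0, 43.7 [36.7, 51.6] in cluster 6 and 22.6 [18.1, 28.0] in cluster 10. Atf3 ranged from 119 [99.0, 142] in cluster 0 to no UMI in the 76 CTLs of cluster 5, an upper limit of 9.38. Cluster 5, led by Klra7 and with the stem-like T cell factor gene Tcf7 among its leading genes, had the highest Fosl2 level at 427 [365, 497] and the lowest Jund level at 859 [770, 956]. Cluster 6 had the lowest Junb (417 [395, 440]) and the highest Jund (2200 [2149, 2253]). The 129 proliferating CTLs of cluster 13 were second to cluster 0 for Jun (73.7 [61.6, 87.6]). Their Fos level of 72.6 [60.6, 86.3] rested on 2 cells with 81 of 128 UMIs, and was 27.4 [20.1, 36.4] without them, overlapping that of cluster 5. The gene lists differed along with the members. The T cell activation list summed to 14494 CPM in cluster 0 and 915 in cluster 5, and the heat shock list to 11598 in cluster 0 and 4391 in cluster 10, so that cluster 0 was high for both.

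**Figure D2:**
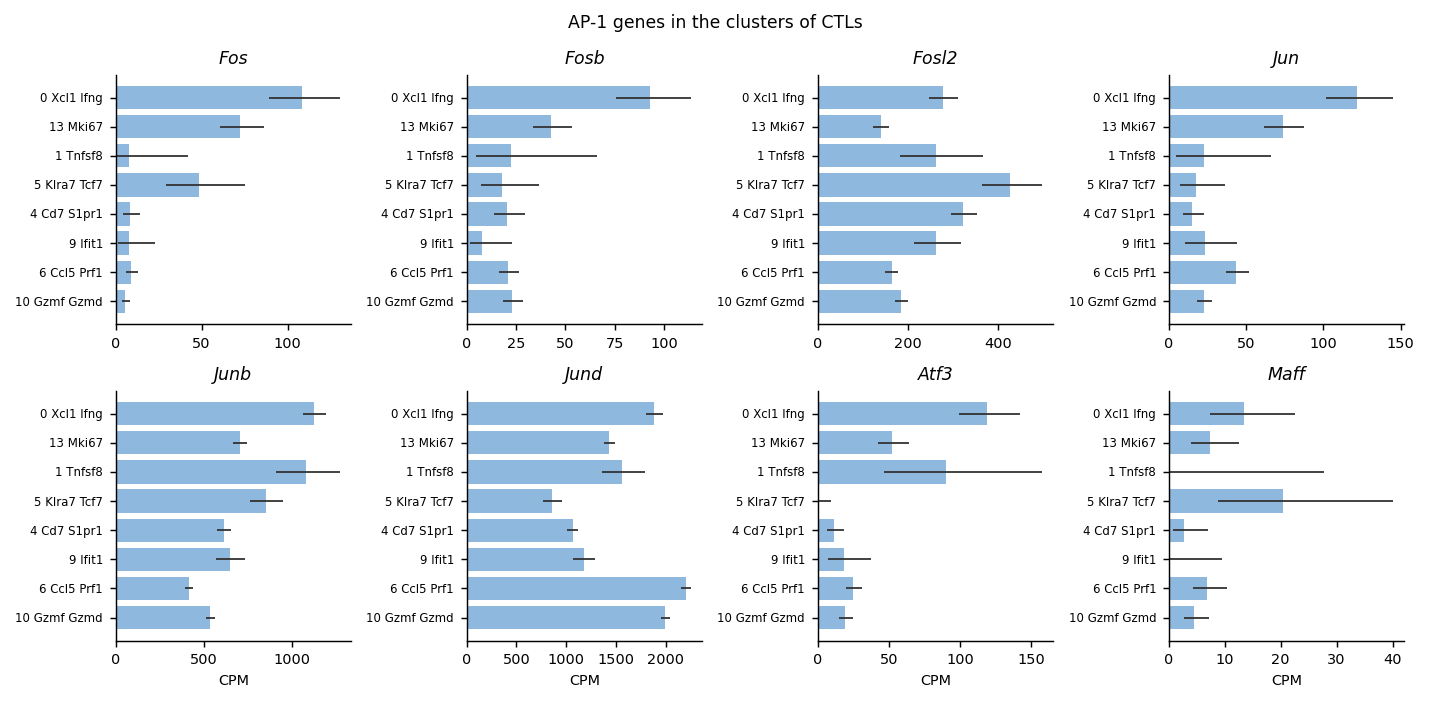
Bars give CPM of each AP-1 gene in CTLs of 8 clusters, all genotypes together, with exact Poisson intervals at 95% as lines, and clusters are named by number and leading genes. Fos, Fosb, Jun and Atf3 peak in cluster 0 (Fos 108, or 51.3 without 1 cell), Fosl2 peaks in cluster 5 (427) and Jund in clusters 6 and 10.

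To compare handling with activation, CTLs were ranked within each genotype by the summed UMIs of a gene list and cut into upper, middle and lower groups of about equal size, with ties at a cut left in no group, after each cell had been thinned to 1000 UMIs. The heat shock list (Hspa1a, Hspa1b, Dnajb1, Hsph1, Hspa8, Hsp90aa1, Dnaja1 and Hspe1) holds chaperone genes that warming and digestion induce. The activation list holds 14 genes downstream of the antigen receptor, such as Nr4a1, Egr2, Irf4, Tnfrsf9 and Ifng. The early response list (Ier2, Dusp1, Egr1, Btg2, Zfp36, Klf6, Ppp1r15a, Ier5 and Nfkbia) holds fast genes that both kinds of signal can induce. No AP-1 gene is in any list. All cells were digested, so a change made by handling cannot be separated from one made in the tumor with these data, and heat shock genes also vary with activation.

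Fos and Atf3 had the larger ratio for the activation list, Fosb for the heat shock list, and Jun had ratios of like size for both. Fos had 37 UMIs in the 483 CTLs of the upper activation group and 2 in the 534 of the lower group, a log2 ratio of 4.35 [2.40, 7.45]. For the heat shock list Fos had 27 UMIs in 561 cells and 10 in 475 cells, a log2 ratio of 1.19 [0.10, 2.40]. Fosb had 42 UMIs in the upper and 2 in the lower heat shock group, or 4.15 [2.21, 7.24], and 33 and 8 for the activation list, or 2.19 [1.05, 3.51]. The activation and heat shock intervals overlapped for both genes, and the difference between the lists was not tested. Jun had ratios of 2.11 [1.08, 3.28] for activation and 2.34 [1.18, 3.74] for heat shock. Atf3 had 36 UMIs against 9 for activation, a log2 ratio of 2.14 [1.06, 3.38], and 28 against 17 for heat shock, or 0.48 [−0.44, 1.44]. The pooled groups differed in genotype. The upper activation group held 158 WT, 306 RARα-KO and 19 RARα-TG CTLs, and the lower group 276, 214 and 44. For heat shock the numbers were 257, 279 and 25 against 195, 251 and 29. The part of this difference in the ratios was not tested.

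The genes with higher counts differed less. Junb had 487 UMIs in the upper and 254 in the lower activation group (log2 1.08 [0.86, 1.31]), and a heat shock ratio of 0.51 [0.29, 0.73]. Jund was at 0.59 [0.45, 0.73] for activation and 0.07 [−0.07, 0.20] for heat shock. Fosl2, with 128 UMIs against 118 for activation and 143 against 95 for heat shock, had ratios of 0.26 [−0.11, 0.64] and 0.35 [−0.03, 0.74], neither clear of 0. Maff had 8 UMIs in the upper and 0 in the lower activation group, at least 1.56 on the log2 scale with the lower group set at 3 UMIs, and 4 UMIs in each heat shock group.

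The early response list, which both kinds of signal share, separated the immediate early members. Its log2 ratios in CTLs were 3.54 [1.89, 5.88] for Fos, 2.35 [1.09, 3.89] for Fosb, 2.21 [1.17, 3.42] for Jun, 2.17 [0.99, 3.58] for Atf3 and 1.47 [1.22, 1.72] for Junb. Fosl2 was at 0.48 [0.07, 0.89], and Jund, at −0.06 [−0.20, 0.08], had an interval that held 0.

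Because cluster 0 was high for both lists, each split was repeated in the CTLs of the lower part of the other list. With heat shock held low, 293 upper and 327 lower cells for activation gave Fos 16 UMIs against 0, at least 2.57 on the log2 scale, Atf3 2.90 [1.14, 5.29], Jun 1.97 [0.29, 4.03], Junb 0.87 [0.57, 1.16] and Jund 0.53 [0.36, 0.71]. Fosb, at 7 UMIs against 3, was at 1.38 [−0.75, 3.96]. With activation held low, 344 upper and 307 lower cells for heat shock gave Fosb 14 UMIs against 0, at least 2.06, Jun 2.84 [0.75, 6.00] and Atf3 2.54 [0.39, 5.73], with Fos at 6 UMIs against 1 (2.42 [−0.62, 7.94]), Junb at 0.31 [0.00, 0.63] and Jund at 0.05 [−0.13, 0.24]. Atf3, which had no clear heat shock ratio over all CTLs, had one in the cells low for activation, from 13 UMIs against 2.

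In WT and RARα-KO the activation ratios were all above 0 for the members with more than 3 UMIs in a group. Fos had an activation ratio of 2.39 [−0.09, 5.73] in WT CTLs and of at least 2.85 in RARα-KO CTLs, from 31 UMIs against 0, and Fosb a heat shock ratio of 3.51 [0.81, 8.90] in WT and 4.60 [2.001, 9.96] in RARα-KO. For heat shock only Jund differed in sign, at 0.34 [0.13, 0.56] in WT and −0.15 [−0.33, 0.04] in RARα-KO. Among the 94 RARα-TG CTLs only Fosl2, Junb and Jund had more than 3 UMIs in a heat shock group.

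**Figure D3:**
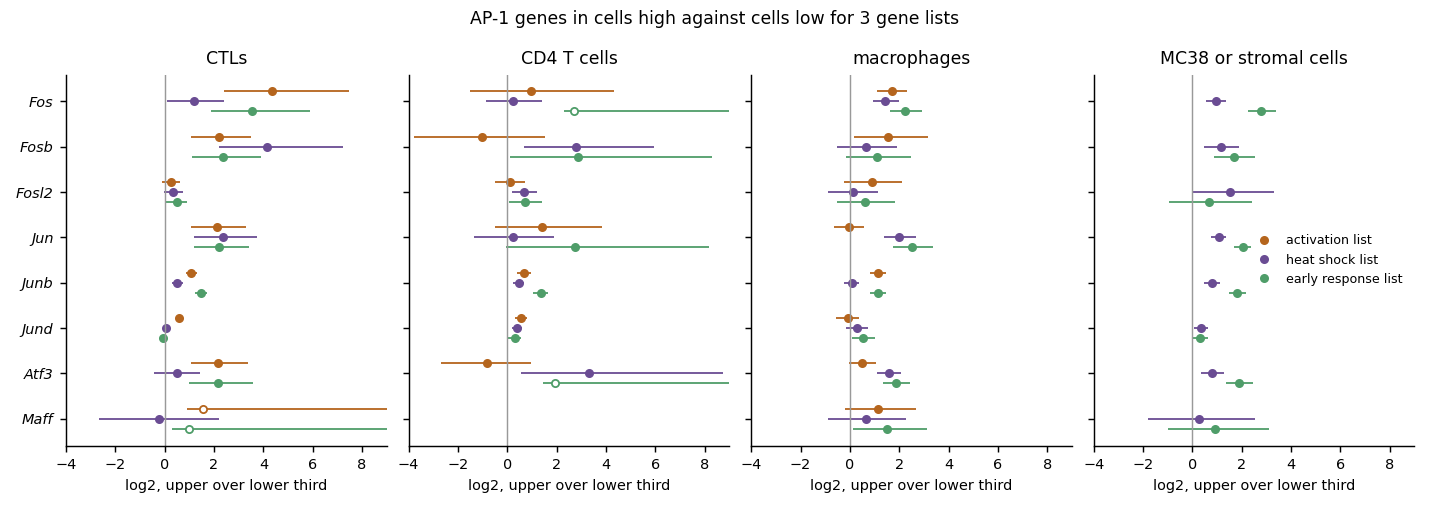
Points give the log2 ratio of each AP-1 gene in cells of the upper against cells of the lower group for the activation, heat shock and early response lists, in 4 cell classes, with exact intervals at 95% cut at the edge of the axis, and open points mark lower bounds. In CTLs Fos stands highest for activation (4.35) and Fosb for heat shock (4.15), while Fosl2 and Jund stay under 0.6, and no activation list was set for MC38 or stromal cells.

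The split by lists was different in the other classes. In CD4 T cells, Junb (0.67 [0.40, 0.95]) and Jund (0.56 [0.31, 0.81]) had activation ratios clear of 0, whereas Fos, with 6 UMIs against 2, was at 0.98 [−1.51, 4.32]. Their heat shock ratios were clear of 0 for Fosb (2.77 [0.67, 5.94]), Atf3 (3.32 [0.54, 8.75]), Fosl2 (0.67 [0.17, 1.19]), Junb (0.46 [0.23, 0.69]) and Jund (0.39 [0.18, 0.60]). In macrophages, a myeloid activation list (Il1b, Tnf, Cxcl2, Ccl3, Ccl4, Nlrp3, Ptgs2, Nfkbiz and Il1rn) gave Fos 1.71 [1.12, 2.34], Fosb 1.55 [0.15, 3.17] and Junb 1.13 [0.81, 1.47], but Jun −0.04 [−0.65, 0.57] from 48 UMIs in each group. For heat shock the macrophage ratio was 2.01 [1.39, 2.68] for Jun, 1.58 [1.11, 2.07] for Atf3 and 1.44 [0.93, 1.98] for Fos, with Junb at 0.07 [−0.23, 0.38]. In macrophages Jun thus had a ratio clear of 0 for heat shock genes, Junb for cytokine genes, and Fos for both.

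In MC38 or stromal cells, 7 of the 8 genes had a heat shock ratio clear of 0, from 0.35 [0.05, 0.65] for Jund to 1.53 [0.04, 3.31] for Fosl2, with Jun at 1.06 [0.77, 1.36] and Fos at 0.96 [0.57, 1.37]. The early response list gave larger ratios there for Fos (2.79 [2.24, 3.39]), Jun (2.04 [1.70, 2.39]), Atf3 (1.90 [1.36, 2.47]) and Junb (1.82 [1.47, 2.18]). Hspa1a and Hspa1b are near-identical copies whose reads the counting could split between them, so neither is read alone.

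In CTLs, Fos and Jun were higher in RARα-KO than in WT, Atf3 was higher by less, and Fosl2 was lower. In WT CTLs Fos was at 10.7 CPM [8.10, 13.8], in those of RARα-KO at 41.9 [37.0, 47.3] and in those of RARα-TG at 20.1 [9.62, 36.9]. Jun was at 19.7 [16.1, 23.8], 66.5 [60.3, 73.2] and 10.0 [3.26, 23.4], and Atf3 at 25.3 [21.2, 29.96], 42.5 [37.6, 47.9] and 2.01 [0.05, 11.2]. For all 3 genes the RARα-KO interval lay above the WT interval.

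The log2 ratio of RARα-KO to WT was 1.97 [1.55, 2.41] for Fos, 1.76 [1.44, 2.08] for Jun and 0.75 [0.44, 1.06] for Atf3. Fosl2 was at −0.32 [−0.44, −0.20], Junb at −0.10 [−0.17, −0.03], Jund at 0.12 [0.08, 0.16], Fosb at 0.11 [−0.20, 0.42] and Maff at 0.26 [−0.43, 0.98]. Thus 2 of the 8 genes were past 2-fold higher and none lower, where 1.27% of the 6558 genes above a filter of 0.1 UMIs per cell were past 2-fold higher and 1.39% lower. That filter passed 7 of the 8 members, all but Maff. The median over the members was 0.19 [−0.04, 0.70], beside 0.01 over all genes.

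The Fos value rested on few cells, and the Jun value did not. A Fos UMI was found in 55 of 968 RARα-KO CTLs (5.68%) and in 33 of 787 WT CTLs (4.19%), and 3 RARα-KO cells with 60, 57 and 24 UMIs held 141 of the 264 Fos UMIs, or 53.4%. None of these 3 cells had more than 1 UMI of the macrophage or MC38 markers. A Jun UMI was found in 182 RARα-KO CTLs (18.8%) against 72 WT CTLs (9.15%), and the 3 highest RARα-KO cells held 12.2% of the Jun UMIs. With each cell thinned to 1000 UMIs, a Jun UMI was found in 4.96% [3.68, 6.52] of RARα-KO CTLs and 1.65% [0.88, 2.81] of WT CTLs, but a Fos UMI in 1.86% [1.11, 2.92] and 1.27% [0.61, 2.32], whose intervals overlap (Clopper-Pearson). The Fos ratio fell to 1.54 without the 3 highest cells of each genotype, to 1.10 without the proliferating cluster, to 0.81 as a mean over single cells and to 0.79 with each clonotype weighted equally, the last 2 under 2-fold. The Jun ratio stayed between 1.41 and 1.91 in 14 alternatives.

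Many RARα-KO CTLs with a Fos UMI also held UMIs of other AP-1 genes. Of 55 RARα-KO CTLs with a Fos UMI, 25 also had a Jun UMI (45.5%) and 26 a Fosb UMI (47.3%), and of 33 such WT CTLs 6 had a Jun UMI and 6 a Fosb UMI (18.2% each). Over all CTLs, a Jun UMI was found in 182 of 968 RARα-KO and 72 of 787 WT cells, and a Fosb UMI in 109 and 94. CTLs with a Fos UMI had a mean of 8076 UMIs in RARα-KO and 5646 in WT. The shares among cells with Fos are not adjusted for depth or for these rates, and the difference was not tested. The 25 cells with both Fos and Jun were 13.7% of the RARα-KO CTLs with a Jun UMI.

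**Figure D4:**
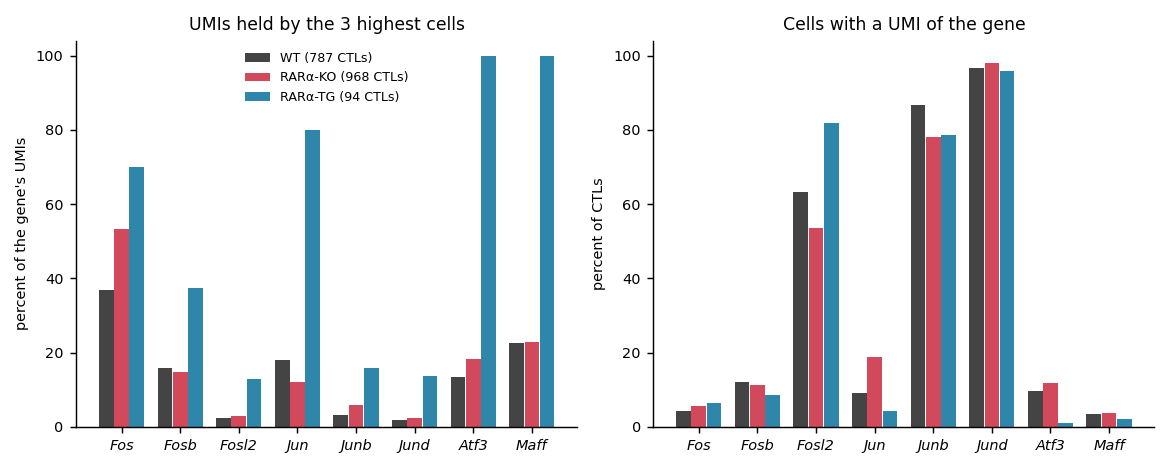
The left panel gives the percent of each gene's UMIs held by the 3 highest CTLs of a genotype and the right panel the percent of CTLs with a UMI of the gene, both as bars from 0 for WT, RARα-KO and RARα-TG. Fos in RARα-KO has 53.4% of its UMIs in 3 cells, against 12.2% for Jun, and with few UMIs in RARα-TG the left bars reach 100% for Atf3 (1 UMI) and Maff (3 UMIs).

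Within CTL clusters the RARα-KO ratio of Jun was above 0 in clusters 0 (2.92 [1.75, 4.39], 121 UMIs in 142 cells against 6 in 58), 6 (2.08 [0.82, 3.72]) and 13 (2.07 [1.39, 2.82]). Its interval held 0 in clusters 10 (0.51 [−0.21, 1.20]), 4 (0.998 [−0.47, 2.66]) and 9 (0.94 [−1.45, 4.24]). Fos was at 0.80 [0.09, 1.58] in cluster 0, but at 0.04 [−0.95, 1.13] without the highest cell of each genotype, and without the RARα-KO cell of 60 UMIs alone RARα-KO was at 44.6 CPM against 71.2 in WT. In clusters 10 (0.02 [−1.79, 1.53]) and 4 (0.78 [−1.12, 2.96]) the Fos interval held 0. Fos was at 5.68 [3.79, 8.74] in the proliferating cluster 13, where 15 of 66 RARα-KO cells held 125 UMIs and 2 of 58 WT cells held 2. Of the 125 UMIs 81 lay in 2 cells, and without the 2 highest cells of each genotype WT had no UMI left and the ratio was at least 3.61. In that cluster the cell cycle markers went both ways, with Mki67 at 453 CPM in RARα-KO and 386 in WT, Birc5 at 380 and 291, Top2a at 521 and 561 and Stmn1 at 501 and 551. Of the activation-induced genes looked at there, Egr1 was at 345 and 48.1 and Nr4a1 at 405 and 139, but Xcl1 was at 47.9 [34.9, 64.1] and 138 [113, 167]. Atf3 was at 1.65 [0.91, 2.47] in cluster 13, where 1 RARα-KO cell held 27 of its 73 RARα-KO UMIs. It was at 0.23 [−0.37, 0.88] in cluster 0 and 0.29 [−0.72, 1.48] in cluster 6. In clusters 10 (−0.80 [−1.87, 0.14]), 4 (−0.96 [−2.70, 0.64]) and 9 (−1.28 [−4.05, 1.28]) the Atf3 value was below 0 and its interval held 0. Junb went both ways, with 0.24 [0.04, 0.43] in cluster 0, 0.47 [0.30, 0.65] in cluster 13 and −1.09 [−1.28, −0.90] in cluster 10. Jund did too, with 0.23 [0.08, 0.38] in cluster 0, 0.29 [0.18, 0.40] in cluster 6 and 0.15 [0.07, 0.22] in cluster 10, against −0.49 [−0.61, −0.38] in cluster 13 and −0.30 [−0.58, −0.02] in cluster 9. Fosl2 was at −0.91 [−1.23, −0.60] in cluster 10, −0.47 [−0.83, −0.10] in cluster 0 and 0.38 [0.06, 0.70] in cluster 4. The clusters also differed in size, with 549 RARα-KO and 79 WT cells in cluster 6 and 146 and 402 in cluster 10. How much of the pooled ratios this accounts for was not tested.

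The gene lists moved in RARα-KO CTLs as well. Of the early response list, 7 of 9 genes had an interval above 0 and none below, with a median of 0.35 and Egr1, a zinc finger immediate early gene, at 1.71 [1.54, 1.89]. Of the heat shock list, 8 of 8 were above 0, with a median of 0.82 and Hsph1 at 1.35 [1.23, 1.48]. Of the 13 activation genes above the filter, 9 were above 0 and none below, with a median of 1.08 and Ccl4 at 3.37 [3.29, 3.46], Ifng at 1.87 [1.74, 1.997] and Nr4a1 at 1.08 [0.95, 1.21]. The median over all genes was 0.01 each time. Both the heat shock and the activation list were higher beside Fos and Jun, and their part in the AP-1 ratios was not tested. Of 13 other bZIP genes above the filter, 3 were above 0 (Batf at 0.62 [0.46, 0.77], Bach1 at 0.92 [0.47, 1.38] and Atf4 at 0.52 [0.36, 0.69]) and 3 below, with Jdp2, which represses AP-1, at −1.58 [−1.86, −1.30]. Of 17 upstream genes (MAP kinases, their phosphatases and serum response factor partners), 5 were above and 3 below 0, and Dusp6, the ERK phosphatase gene, was at 2.34 [1.65, 3.11].

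In RARα-TG CTLs, Fosl2 was higher and Atf3 and Jund lower than in WT. Fosl2 was at 465 CPM [407, 529] in RARα-TG, 178 [168, 189] in RARα-KO and 223 [210, 236] in WT, a log2 ratio of RARα-TG to WT of 1.06 [0.85, 1.27]. After thinning, 35.9% [26.1, 46.5] of RARα-TG CTLs and 19.9% [17.2, 22.9] of WT CTLs had a Fosl2 UMI. With each clonotype weighted equally the ratio was 0.54, under 2-fold. Jund was at 1019 [932, 1111] against 1730 [1695, 1765], or −0.76 [−0.90, −0.63]. Atf3 had 1 UMI in RARα-TG and 135 in WT, a ratio of −3.66 [−8.97, −1.16] at a level that free RNA alone could give.

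The ratios of the other members in RARα-TG CTLs had intervals that held 0, with Fos at 0.91 [−0.23, 1.89], Fosb at −0.89 [−2.13, 0.12], Jun at −0.97 [−2.63, 0.29], Junb at 0.16 [−0.01, 0.32] and Maff at 0.05 [−2.30, 1.73]. Fos came from 10 UMIs in 6 cells, 4 of them in 1 cell, and its ratio ranged from −1.17 to 1.29 over 14 alternatives. In all, 1 of 8 was past 2-fold higher, where 4.75% of 6638 genes were, and 1 was lower, where 6.99% were. The median over the members was −0.36 [−1.51, 0.31], beside −0.01 over all genes. Within cluster 4, led by Cd7 and S1pr1, Fosl2 was at 1.20 [0.84, 1.56] in 56 RARα-TG against 136 WT CTLs, but in cluster 5 at −0.22 [−0.70, 0.25] in 21 against 50. Jund, lower over all RARα-TG CTLs, was at −0.15 [−0.37, 0.08] in cluster 4 and 0.31 [−0.01, 0.63] in cluster 5, and both intervals held 0. How much of the pooled Jund ratio comes from the mix of clusters was not tested.

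The lists separated in RARα-TG CTLs. All 8 heat shock genes were above 0 with a median of 1.29, whereas 10 of the 12 activation genes above the filter were below 0 and none above, with a median of −1.01, Ccl4 at −5.28 [−7.56, −3.73] and Nr4a1 at −0.60 [−1.09, −0.15]. The filter took a gene on its level in either genotype, here and in the other comparisons. Activation genes could thus enter through the genotype where they were high, which can tilt their count and median. Early response genes were mixed, with 4 of 9 above and 2 below 0. Among 13 other bZIP genes, Cebpb was at 2.003 [1.76, 2.24], Mafk at 1.46 [0.57, 2.28] and Bach1 at 1.42 [0.50, 2.25], whereas Batf was at −1.05 [−1.69, −0.47] and Jdp2 at −1.68 [−2.69, −0.82]. Of 16 upstream genes, 1 was above and 4 were below 0. Compared with WT the heat shock list was thus higher in both RARα-KO and RARα-TG CTLs, and the activation list higher in RARα-KO and lower in RARα-TG. Over all CTLs, though not within clusters 4 and 5 for Jund in RARα-TG, 2 members shared the sign of the activation list in both with intervals clear of 0. They were Jund, at 0.12 and −0.76, and Atf3. Atf3 had 1 UMI in RARα-TG, a level that free RNA could give, and passed the filter there only through WT. Its shared sign is therefore given without weight. Jun and Fosb shared the sign of the activation list by value. The interval held 0 for Jun in RARα-TG, where 1 of 14 alternatives had the other sign, and for Fosb in both.

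**Figure D5:**
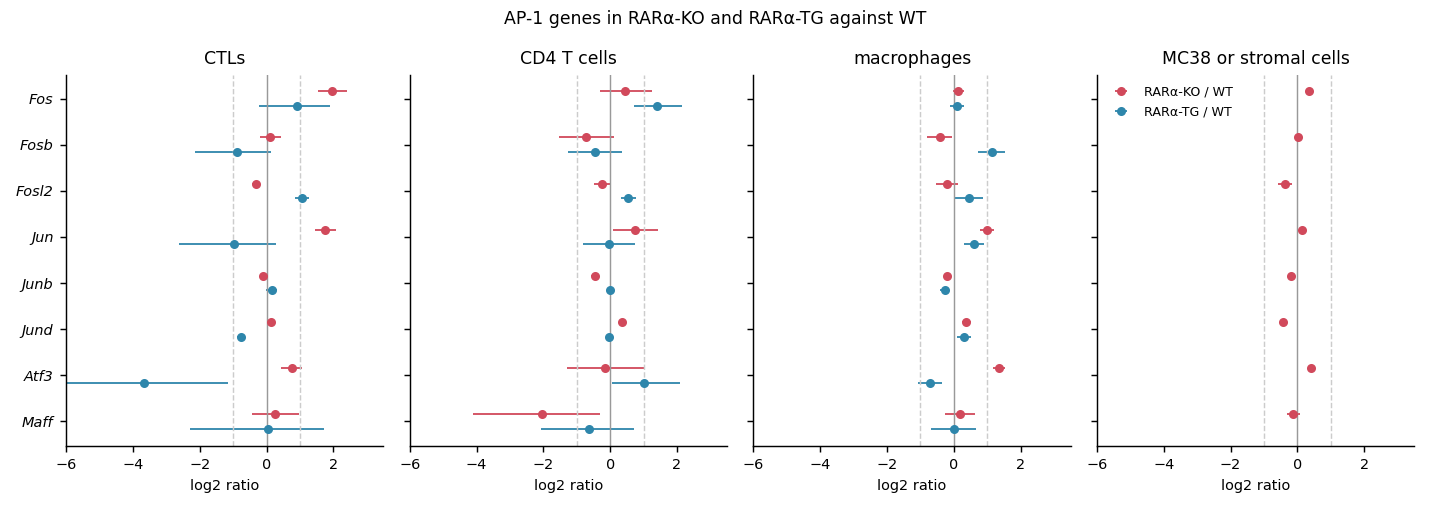
Points give the log2 ratio of each AP-1 gene in RARα-KO or RARα-TG to WT in 4 cell classes, with exact binomial intervals at 95%, solid lines at 0 and dashed lines at 2-fold, and the axis cuts the interval of Atf3 in RARα-TG CTLs. Fos (1.97) and Jun (1.76) in RARα-KO CTLs, Fosl2 in RARα-TG CTLs (1.06) and Atf3 in RARα-KO macrophages (1.36) lie past 2-fold, and all points of MC38 or stromal cells lie within it.

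In CD4 T cells the AP-1 genes differed less between RARα-KO and WT. Junb was at 1743 CPM [1660, 1828] in WT and 1259 [1199, 1322] in RARα-KO (log2 −0.47 [−0.57, −0.37]), and Jund at 1711 [1630, 1796] and 2200 [2120, 2282] (0.36 [0.27, 0.45]), so the Jun genes went in opposite directions. Jun was at 0.75 [0.08, 1.44], from 64 UMIs against 28. Fos was at 0.46 [−0.31, 1.25], Fosb at −0.71 [−1.54, 0.10], Fosl2 at −0.23 [−0.48, 0.01] and Atf3 at −0.15 [−1.30, 1.03]. Maff was at −2.03 [−4.12, −0.31] from 4 UMIs against 12 and did not pass the filter. It was the only one of 8 past 2-fold lower, where 2.5% of 6277 genes were, and none was past 2-fold higher, where 1.64% were. Atf3 did not pass the filter either, and the member median was −0.19 [−0.52, 0.28] beside −0.03 over all genes. Of the lists, 7 of 8 heat shock genes were above 0, while 2 of 10 activation genes were above and 6 below. The Fos ratio was −1.40 after thinning. By Foxp3, Jun was at 1.23 [0.50, 1.99] and Fos at 1.39 [0.20, 2.70] in the CD4 T cells with Foxp3, and Fosb at −1.13 [−2.08, −0.19] in those without. For that Fos value 1 RARα-KO cell held 11 of 21 UMIs, and the RARα-KO level went from 43.0 to 20.7 CPM without it.

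In RARα-TG CD4 T cells, Fos was at 63.7 CPM [49.8, 80.2] against 23.9 [15.2, 35.9] in WT, a log2 ratio of 1.41 [0.72, 2.16], but 1 cell held 43 of the 72 UMIs. Without the 3 highest cells of each genotype the ratio was 0.20, and with each clonotype weighted equally 0.01. A Fos UMI was found in 20 of 238 RARα-TG and 19 of 192 WT cells. Atf3 was at 1.02 [0.04, 2.08] from 31 UMIs against 13, and ranged from 0.33 to 1.69 over 14 alternatives. Fosl2 was at 0.54 [0.32, 0.77], as in CTLs in direction, and was above 0 with Foxp3 (0.52 [0.22, 0.84]) and without it (0.59 [0.25, 0.93]). The remaining 5 members had intervals that held 0. Past 2-fold were 2 of 8 higher, where 2.4% of 6125 genes were, and none lower, where 2.45% were, and the member median was −0.02 [−0.12, 0.73] beside 0.00 over all genes. Maff did not pass the filter. The heat shock list had 8 of 8 genes above 0 with a median of 0.91.

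In macrophages, Atf3 and Jun were higher in RARα-KO than in WT. Atf3 was at 495 CPM [443, 551] in 83 WT macrophages, 1271 [1199, 1346] in 129 macrophages of RARα-KO and 305 [241, 380] in 36 of RARα-TG, and the 3 intervals did not overlap. Its RARα-KO ratio was 1.36 [1.18, 1.54], and a UMI was found in 79.8% of RARα-KO, 60.2% of WT and 30.6% of RARα-TG macrophages. Jun was at 394 [348, 445], 785 [729, 844] and 598 [507, 700], a RARα-KO ratio of 0.99 [0.79, 1.20], and Jund was at 0.37 [0.23, 0.52]. Fos was at 865 [796, 939] in WT and 951 [889, 1016] in RARα-KO (0.14 [−0.02, 0.29]) but at 0.98 after thinning. Fosb was at −0.42 [−0.80, −0.05] and Junb at −0.20 [−0.29, −0.10]. One of 8 members was past 2-fold higher, where 5.46% of 6449 genes were, and none lower, where 6.47% were, with a member median of 0.16 [−0.14, 0.40] beside −0.04 over all genes. Heat shock genes were above 0 for 7 of 8, with a median of 0.92, and 2 of 9 myeloid activation genes were above and 4 below 0.

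In RARα-TG macrophages Fosb was at 393 [321, 477] against 179 [149, 214] in WT, a ratio of 1.13 [0.74, 1.53], and Atf3 at −0.70 [−1.07, −0.34]. Jun was at 0.60 [0.30, 0.89], but 1 cell held 89 of the 155 UMIs and the ratio was −0.67 without the 3 highest cells of each genotype. Jund was at 0.30 [0.10, 0.51] and −0.28 after thinning. Past 2-fold were 1 of 8 higher, where 10.4% of 6670 genes were, and none lower, where 11.2% were. That count of 1 is near the background. The member median was 0.20 [−0.05, 0.58] beside 0.05 over all genes. All 9 myeloid activation genes were below 0, with a median of −1.11, and 6 of 8 heat shock genes were above 0. Beside these ratios, the 12 macrophage markers summed to 14967 CPM in the WT, 8994 in the RARα-KO and 19682 in the RARα-TG macrophages, the 9 T cell markers to 52.3, 141 and 34.7, and the 12 MC38 or stromal markers to 300, 241 and 258. The part of these differences in the AP-1 ratios was not tested. The dLck-Cre is directed to T cells, and Rara in macrophages was at 77.7 [58.0, 102], 64.7 [49.4, 83.2] and 84.8 [53.2, 128].

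MC38 cells carry neither the deletion nor the transgene. Host stroma in the class would come from the mice of each genotype, but the dLck-Cre and the CD2 promoter are directed to T cells. No AP-1 gene there was past 2-fold between 122 RARα-KO and 265 WT cells, where 1.88% of 10432 genes were higher and 0.987% lower. Atf3 was at 0.41 [0.35, 0.46], Fos at 0.35 [0.30, 0.40] and Jun at 0.13 [0.09, 0.17], all above 0. Jund was at −0.42 [−0.46, −0.38], Fosl2 at −0.38 [−0.59, −0.17] and Junb at −0.19 [−0.24, −0.15], and Fosb (0.01 [−0.09, 0.10]) and Maff (−0.13 [−0.32, 0.06]) had intervals that held 0. The member median was −0.06 [−0.16, 0.08] beside 0.01 over all genes.

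Expanded clones differed from single ones in several members. Cells of a large clone share their origin, so they are not independent, and the intervals do not cover this. The part of the mix of clusters in these ratios was not tested. In WT, 466 CTLs belonged to clones of at least 10 cells and 120 to clones of 1 cell. Jund was higher in the large clones in WT (0.66 [0.55, 0.77]) and in RARα-KO (0.43 [0.32, 0.54]), and Fosl2 lower in both (−0.65 [−0.87, −0.42] and −0.56 [−0.82, −0.28]), as was Junb (−0.39 [−0.53, −0.25] and −0.43 [−0.58, −0.28]). Fos was at −1.34 [−2.22, −0.40] in WT, with a UMI in 3.22% of cells of large clones and 10.8% of single ones. In RARα-KO it was at −1.54 [−1.96, −1.10], but 1 cell of a single clone held 60 of 63 UMIs, and without the highest cell of each group the ratio was 2.31 [0.73, 4.60]. Atf3 was at 1.55 [0.37, 3.03] in WT, where the single clones held only 6 UMIs in 4 cells, and −0.58 [−1.10, −0.01] in RARα-KO. Without the highest cell of each group it was at 2.03 [0.61, 3.94] in WT and −0.37 [−0.97, 0.28] in RARα-KO, where the interval held 0. In RARα-KO an Atf3 UMI was found in 12.5% of cells of large clones and 11.7% of single ones.

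Over 19 groups of class and genotype with at least 20 cells, the levels of Fos, Fosb, Jun, Atf3 and Maff ran together. The values used were log2 of CPM plus 10, and the groups share 1 library, so the coefficients are descriptions. Pearson's r was 0.90 for Fos with Jun, 0.90 for Fos with Atf3 and 0.92 for Jun with Atf3. For Fosb it was 0.87 with Fos, 0.79 with Jun and 0.81 with Atf3. For Maff it was 0.80, 0.86 and 0.93 with the same genes in that order, and 0.72 with Fosb. It was −0.46 for Fos with Fosl2 and −0.51 for Fos with Jund. Among 11784 genes the most alike were App (0.94), Ltbr and Ppp1r2 for Fos, Timp1 (0.93), Arf2 and Hacd4 for Fosb, and Tes (0.92), Neurl3 and Tnfaip3 for Fosl2. They were Atf4 (0.95), Rhob and Rab31 for Jun, Dusp1 (0.94), Cited2 and Mafg for Junb, and Camk2n1 (0.90), Kcnk7 and Dusp14 for Jund. For Atf3 they were Rhob (0.96), Ier3 and Gm49774, and for Maff Cdc42ep4 (0.97), Tnfaip2 and Cd9.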

How the data were processed

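The authors aligned the reads to mm10. They deposited raw counts of UMIs for each gene in each of 730308 barcodes, together with hashtag counts and a table of TCR contigs. The submitters' processing notes name Cell Ranger 6.1.0, whereas the header of the matrix names Cell Ranger 4. From the deposited counts, barcodes with at least 500 gene UMIs were kept as cells, fewer than the study states. HTODemux of Seurat 5.3.0 (R 4.3.3, quantile 0.99) called 4935 cells singlets, 427 doublets and 238 negative, and only singlets entered, so doublets within a genotype remain. Python 3.11.15 with scanpy 1.11.5 and scipy 1.17.1 was used. Cells were clustered with 2000 variable genes, 30 principal components and Leiden at resolution 1. Left out before that were 83 genes, namely the AP-1 and list genes, and in addition the TCR genes. The plan named only the list genes, and the AP-1 genes were left out as well. T cells needed a clonotype and a cluster with over 50% clonotypes. CTLs had at least 1 Cd8a UMI and no Cd4 UMI, and CD4 T cells at least 1 Cd4 UMI and neither Cd8a nor Cd8b1 UMIs.

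Every genotype was 1 sample, so UMI sums, ratios and intervals were computed without a test. The background percentages use genes with at least 0.1 UMIs per cell in either genotype. The intervals were checked only on counts simulated with the counting error that they assume. That check leaves out the spread between cells, so it does not cover genes whose UMIs lie in few cells. The members, lists and settings were chosen with earlier results of these data known, including the clonotype rule. Genes named are the 8 members, the genes of the lists and the 3 most alike genes per member. Alternatives changed the scaling, thinning, weighting, gates, hashtag rule, clustering and splits.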

Additional observations from a re-analysis of the deposited data

Results flagged for a closer look

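For Jund and Atf3 the ratio to WT had opposite signs in different cell classes, each with an interval clear of 0. The difference between classes was not tested. Jund in RARα-KO against WT was at 0.12 in CTLs, 0.36 in CD4 T cells and 0.37 in macrophages, where it went down to 0.0071 over 9 alternatives, but at −0.42 in MC38 or stromal cells. Within CTLs it was at 0.29 in cluster 6 and −0.49 in cluster 13. Jund in RARα-TG against WT was at 0.30 in macrophages, where thinning turned it to −0.28, and at −0.76 in CTLs. Within clusters 4 and 5 of CTLs the interval of that last ratio held 0. Atf3 in RARα-TG against WT was at 1.02 in CD4 T cells, −3.66 in CTLs, which rests on 1 UMI, and −0.70 in macrophages.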

How the results depend on the processing

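No AP-1 ratio past 2-fold between genotypes in a whole class, or in a split of CTLs, changed sign under the alternatives run. Between large and single clones the Fos ratio in RARα-KO went from −1.54 to 2.31 without the highest cell of each group. Of the values without 1 or 2 high cells in CTL clusters, clones and splits, chosen after seeing the data, 119 stayed within their interval, 3 left it and that 1 turned. The median over the 8 AP-1 genes kept within its interval except in CD4 T cells of RARα-TG, where −0.02 became −0.12 with each clonotype weighted equally, in RARα-KO macrophages, where 0.16 became 0.48 with thinned cells, and in RARα-TG macrophages, where 0.20 became −0.11 without the 3 highest cells of each gene. With the other list held low, the median heat shock ratio of Fos, Fosb, Jun, Junb, Jund and Atf3 went from 0.85 to 2.24, and that of Fosl2 and Maff for activation from 0.91 to 0.24, where Maff had too few UMIs and only Fosl2 counted. The causes were not tested. Among values for single genes and counts of genes past 2-fold without the low-count filter, 627 were rated as unchanged and 71 were not. A single-gene value was rated as unchanged if it stayed within its interval, whereas the counts of genes have no interval. Single-gene values were also added after seeing the data, without T cells holding RNA of other cell types and without the proliferating cluster. Of these, 61 stayed within their interval and 3 did not.

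Without a filter on low counts, the genes past 2-fold in CTLs were 622 higher and 713 lower for RARα-KO, against 83 and 91 with it, and 1991 and 930 for RARα-TG, against 315 and 464. In CD4 T cells they were 623 and 801 against 103 and 157 for RARα-KO, and 770 and 675 against 147 and 150 for RARα-TG, and in RARα-KO macrophages 908 and 1019 against 352 and 417. No paired analysis was possible because each genotype was 1 sample. Depth limits Atf3, Maff and Jun most in RARα-TG CTLs, with 1, 3 and 5 UMIs in 94 cells.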
